A study of Mus musculus with 18 samples.

Results

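The effect of TD139 on dystrophic muscle was measured in bulk RNA from quadriceps of 3 dyW mice given TD139 and 3 dyW mice given PBS, 6 of the 18 libraries of the study. The libraries were chosen by the genotype and treatment in their names, and each is 1 mouse. The dyW mice carry a disrupted laminin alpha 2 gene (strain B6.129S1(Cg)-Lama2tm1Eeng/J) in both groups, and each group holds 2 males and 1 female. As reference levels serve 3 wild type (WT, C57BL/6J) PBS mice and 2 WT TD139 mice of the same cohort, and an untreated cohort of 3 WT and 4 dyW mice supplies the genes that differ in the disease. That cohort is labelled as 5 weeks old. The treated mice carry an age label of 3 weeks while the protocol gives 5 weeks at tissue collection, so their age is uncertain. PBS is taken as the vehicle from the library names, and the labels state neither how much TD139 was given nor by which route or for how long. Because the tissue is whole muscle, fewer cells of a type and less RNA per cell cannot be told apart in any value below.

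Laminin alpha 2 is the chain of the laminin-211 trimer that ties the muscle fibre membrane to its basement membrane, and its loss causes fibre damage, inflammation and fibrosis. Galectin-3, the product of Lgals3, is a sugar-binding protein made in quantity by macrophages, and it is known for cross-linking glycoproteins at the cell surface and for a role in fibrosis. TD139 is a small-molecule galactoside that occupies the carbohydrate-binding site of galectin-3; it acts on the protein, so the level of Lgals3 RNA does not report on it.

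The dyW TD139 libraries held 39.3, 38.7 and 39.6 M exon reads and the dyW PBS libraries 15.8, 38.9 and 27.6 M. PBS replicate 1, the shallow one, stood apart. It had the highest or lowest expression of the 6 libraries in 55.6% of the genes tested, against 22.9% to 35.0% in the other 5. Its Pearson correlation with the other libraries (log2 CPM, counts scaled to library size, across genes) was 0.962 to 0.971, and all other pairs lay between 0.971 and 0.984. Counts of genes, list medians and some of the named genes are therefore also given without it. In the WT PBS group replicate 1 also stood apart, with slow-fibre genes far above the other WT libraries. Muscle identity was clear in all 6 libraries: the 14 skeletal muscle identity genes summed to between 42100 and 60900 RPKM (reads per kilobase of exon, scaled to mapped reads).

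The targeted gene was low in every library labelled dyW. Lama2 (ENSMUSG00000019899, mm10 chromosome 10, 26980036 to 27619758) was at 0.786, 0.656 and 0.704 RPKM in dyW PBS and 1.10, 1.07 and 0.652 in dyW TD139, all below the 2.18 to 4.58 RPKM of the 5 WT libraries. Its log2 fold change for TD139 was 0.45 (SE 0.27, adjusted p = 0.888 by edgeR). The treatment groups overlapped.

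The first question was which genes differed between TD139 and PBS in dyW. Of 15331 genes tested by edgeR's quasi-likelihood test with Benjamini-Hochberg adjustment, 0 passed an adjusted p under 0.05; the smallest adjusted p was 0.888. At an unadjusted p under 0.05 there were 298 genes higher (1.94% of the genes tested) and 285 lower (1.86%), 3.8% in both directions together. Without PBS replicate 1 edgeR again called 0 of 15149 genes, with 169 higher (1.12%) and 199 lower (1.31%) at an unadjusted p under 0.05. DESeq2 called 4 genes (0.0261%), Kbtbd13 and Armcx4 higher (0.013%) and Arrdc2 and Col11a2 lower (0.013%), and limma on log2 RPKM called 0. With that library left out DESeq2 called 2 genes (0.0132%), Arrdc2 and Tsc22d3, both lower. The genes below are therefore described by their values in each library.

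**Figure D1:**
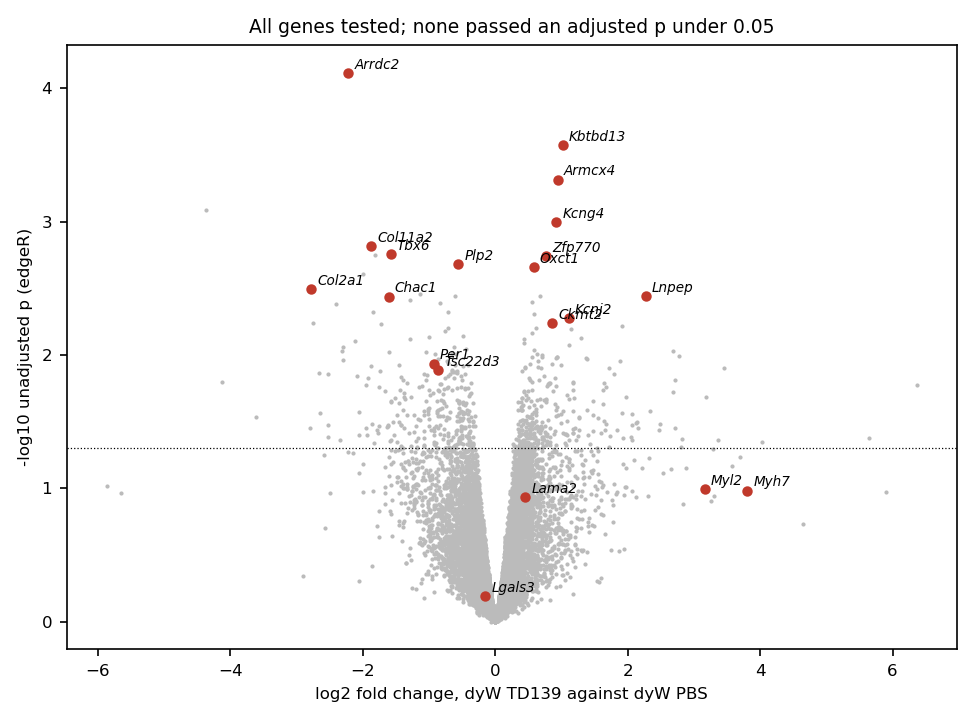
Each point is 1 of the 15331 genes tested, with the log2 fold change of dyW TD139 against dyW PBS on the x axis and -log10 of the unadjusted edgeR p on the y axis; the dotted line marks 0.05. Arrdc2 lies farthest up, on the lower side at a log2 fold change of −2.22, while Myh7 at 3.80 and Myl2 at 3.16 stay under the line.

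The windows around the start sites of Arrdc2 and Kbtbd13, the genes with the smallest p in each direction, are shown for reference (RefSeq, GRCm38.p6, 250 bases before to 50 after the start, read along the gene). Capitals mark the CCAAT box (CCAAT or ATTGG) and the GC box (CCGCCC or GGGCGG) on either strand; the motifs share no letters with each other here, while neighbouring GC boxes of Arrdc2 overlap each other. The Arrdc2 window is chr8:70839671-70839970, minus strand, and the Kbtbd13 window is chr9:65391603-65391902, minus strand.
Arrdc2: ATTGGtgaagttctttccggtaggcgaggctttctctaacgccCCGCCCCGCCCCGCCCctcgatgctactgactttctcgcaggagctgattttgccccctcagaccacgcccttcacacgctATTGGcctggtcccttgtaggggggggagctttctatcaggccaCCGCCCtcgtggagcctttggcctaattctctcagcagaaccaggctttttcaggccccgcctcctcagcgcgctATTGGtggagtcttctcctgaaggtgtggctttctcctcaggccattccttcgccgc
Kbtbd13: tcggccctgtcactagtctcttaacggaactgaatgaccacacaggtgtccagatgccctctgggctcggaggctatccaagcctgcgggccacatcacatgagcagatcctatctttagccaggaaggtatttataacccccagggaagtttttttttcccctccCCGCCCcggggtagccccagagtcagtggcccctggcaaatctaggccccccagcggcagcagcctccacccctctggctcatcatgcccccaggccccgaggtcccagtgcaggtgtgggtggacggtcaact
The Arrdc2 window held 3 CCAAT boxes and 4 GC boxes, and the Kbtbd13 window held 1 GC box and 0 CCAAT boxes. Among 32851 RefSeq windows of the same length, 37.4% held a CCAAT box and 35.7% a GC box. The half-site of the glucocorticoid receptor (AGAACA or TGTTCT), found in 19% of windows, and a FoxO site (GTAAACA or TGTTTAC), found in 3.65%, had 0 matches in both.

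Arrdc2 (ENSMUSG00000002910, mm10 chromosome 8, 70835129 to 70839720) encodes an arrestin-domain adaptor protein and is known as a glucocorticoid-responsive gene in muscle. It was at 5.87, 8.20 and 13 RPKM in dyW PBS and at 2.18, 2.12 and 1.44 in dyW TD139. The 3 TD139 libraries lay below every PBS library. The log2 fold change was −2.22 (SE 0.38, unadjusted p = 7.68e-05, adjusted p = 0.888 by edgeR; adjusted p = 1.7e-05 by DESeq2). Without PBS replicate 1 it was −2.49 (adjusted p = 0.478 by edgeR, 1.56e-07 by DESeq2), and over all alternatives the fold change ran from −2.50 to −1.73. In WT mice Arrdc2 was at 16.6, 18.3 and 29.2 RPKM with PBS and at 5.53 and 9.11 with TD139 (log2 fold change −1.48), so the TD139 libraries were the lower ones in both genotypes.

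Kbtbd13 (ENSMUSG00000054978, chromosome 9, 65388684 to 65391652), a Kelch protein of the sarcomere that is mutated in nemaline myopathy, was at 2.20, 2.69 and 2.60 RPKM in dyW PBS and at 5.27, 5.03 and 4.58 in dyW TD139. The groups did not overlap, and the ratio of means was 1.99. The log2 fold change was 1.02 (SE 0.20, adjusted p = 0.888 by edgeR and 0.0284 by DESeq2), and without PBS replicate 1 it was 0.89 (adjusted p = 0.999 by edgeR and 0.179 by DESeq2). Armcx4, an X-linked armadillo-repeat gene, was at 4.01, 2.82 and 3.89 against 6.20, 6.39 and 7.33 RPKM (log2 fold change 0.94, SE 0.20), again without overlap. Its adjusted p by DESeq2 was 0.0398 with all libraries and 0.158 without PBS replicate 1. Col11a2, a collagen of cartilage, was at 5.46, 10.7 and 2.54 RPKM in dyW PBS and 1.76, 1.05 and 2.16 in dyW TD139 (log2 fold change −1.88, SE 0.46). The groups did not overlap, with PBS replicate 3 next to the TD139 libraries, and the adjusted p by DESeq2 went from 0.0398 to 0.111 without PBS replicate 1.

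Other genes with a small unadjusted p on the higher side included potassium channels and mitochondrial enzymes. Kcng4, a modulatory potassium channel subunit, was at 1.70, 2.05 and 1.55 RPKM in dyW PBS and 2.92, 3.04 and 3.84 in dyW TD139. Kcnj2, the inward rectifier potassium channel Kir2.1, was at 6.22, 3.81 and 7.34 against 14.1, 13.9 and 8.21. Oxct1, the enzyme that lets muscle burn ketone bodies, was at 34.3, 33.2 and 32.0 against 43.1, 53.2 and 47.8. Each of these genes had all its TD139 libraries above all PBS libraries. Ckmt2, the mitochondrial creatine kinase of sarcomeric muscle, was at 225, 246 and 319 RPKM in dyW PBS and 397, 544 and 462 in dyW TD139 (log2 fold change 0.86, SE 0.26, and 0.71 without PBS replicate 1). Lnpep, a membrane aminopeptidase of GLUT4 vesicles, was at 0.882, 0.787 and 1.22 against 5.00, 7.39 and 1.15. TD139 replicate 3 of Lnpep stayed inside the PBS range. On this side Zfp770, Rmdn1, Fastkd1, Coa7 and Trmt2b completed the 12 genes with the smallest p, with log2 fold changes of 0.56 to 0.76.

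On the lower side, Plp2, a membrane proteolipid, was at 53.7, 38.5 and 40.9 RPKM in dyW PBS and 30.1, 25.3 and 31.6 in dyW TD139 (log2 fold change −0.56, SE 0.14, and −0.48 without PBS replicate 1). Chac1, a glutathione-degrading enzyme of the integrated stress response, was at 3.07, 3.76 and 4.90 against 1.67, 1.39 and 0.707. Nmb, which encodes the neuropeptide neuromedin B, was at 1.68, 1.69 and 1.57 against 0.559, 0.719 and 0.685. These groups did not overlap. Tbx6, a T-box transcription factor, was at 2.37, 1.00 and 1.04 against 0.466, 0.527 and 0.379. Pnrc1, a nuclear receptor coregulator, was at 27.2, 19.3 and 22.8 against 15.3, 14.2 and 14.6. The carboxypeptidase-like genes Cpz, Cpxm1 and Cpxm2, the cartilage collagen Col2a1 and the glycosidase Engase completed the 12 named genes, with log2 fold changes of −2.78 to −0.72. PBS replicate 3 lay inside the TD139 range for Cpz and Cpxm2 and, in RPKM, for Col2a1. The provisional gene Gm21541, left out of the 12 for its symbol, had a p of the same size: it was at 18.5, 14.2 and 3.89 RPKM against 2.36, 4.04 and 3.39 (log2 fold change −1.82, and −1.48 without PBS replicate 1). Its PBS replicate 3 lay inside the TD139 range.

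**Figure D2:**
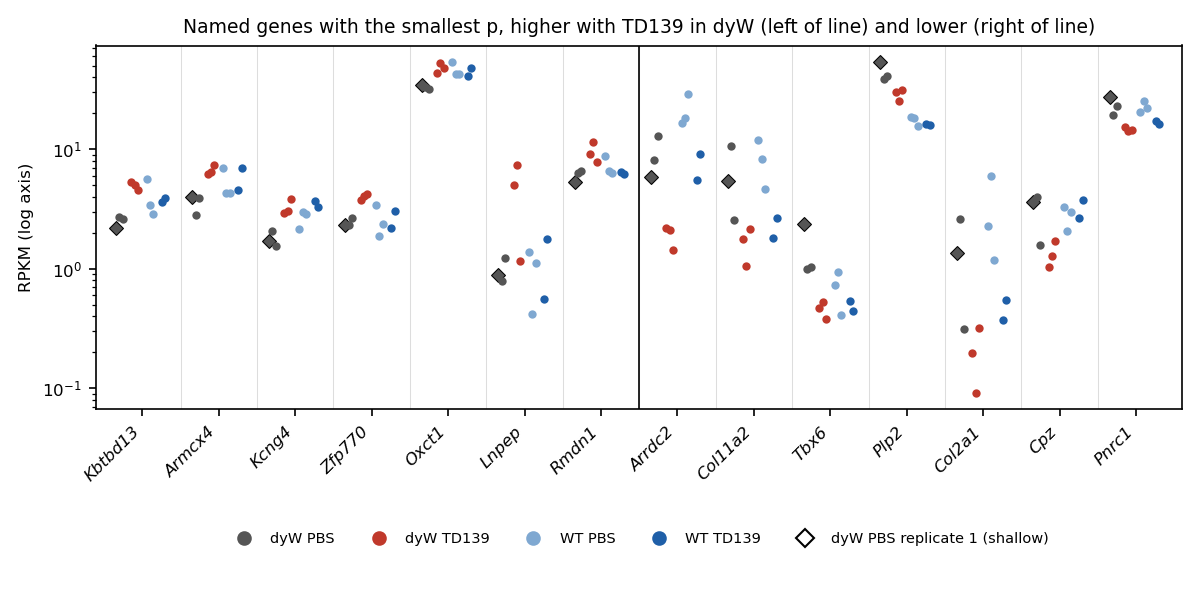
Points are RPKM on a log axis in each of the 11 treatment-cohort libraries for the 7 genes with the smallest p in each direction, leaving out provisional symbols; the diamond is dyW PBS replicate 1, the shallow library. The 3 dyW TD139 libraries of Arrdc2 sit between 1.44 and 2.18, below the 5.87 to 13 of dyW PBS.

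Arrdc2 belongs to a list of glucocorticoid-responsive genes, of which 23 were tested. Of these, 0 were higher and 6 lower at an unadjusted p under 0.05 (1.94% and 1.86% of all genes tested), with a median log2 fold change of −0.19 against −0.01 for all genes tested. Without PBS replicate 1 there were 7 lower and the median was −0.36; without PBS replicate 3 there were 2 lower and the median was −0.06 (3.23% of all genes in that fit, with 4.18% higher). Tsc22d3, the glucocorticoid-induced leucine zipper, was at 23.2, 44.7 and 52.5 RPKM in dyW PBS and 22, 21.4 and 22.1 in dyW TD139 (log2 fold change −0.86, SE 0.30). PBS replicate 1 was next to the TD139 group, overlapping it after TMM scaling, and without it the log2 fold change was −1.17 (adjusted p = 0.999 by edgeR and 0.0006 by DESeq2). Ddit4, an inhibitor of mTORC1, was at 7, 12.2 and 15.9 against 6.43, 6.02 and 7.14. Per1, a clock gene also induced by glucocorticoid, was at 10.1, 19.2 and 17.6 against 6.02, 7.39 and 11. In Ddit4 and Per1 PBS replicate 1 lay inside the TD139 range. Sgk1 (log2 fold change −0.55) and Angptl4 (−1.08) were the other members lower at an unadjusted p under 0.05. Klf9, Klf15 and Fkbp5, also known targets, had log2 fold changes of 0.34, −0.15 and −0.56 with overlapping groups.

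Slow-fibre genes had the highest median of the 49 gene lists with all libraries. Without PBS replicate 1 the erythroid and platelet list (1.66) and the neutrophil list (0.77) had higher medians. Of 17 slow-fibre members, 16 had a log2 fold change above 0 (48.8% of all genes tested did), 12 had all TD139 libraries above all PBS libraries after TMM scaling (7.19% of all genes tested did), and the median was 0.78 (0.73 without PBS replicate 1). At an unadjusted p under 0.05 there were 0 members in the fit of all 11 libraries. Myh7, the slow myosin heavy chain, was at 2.06, 2.70 and 0.426 RPKM in dyW PBS and 6.30, 19.8 and 44.0 in dyW TD139. Myl2, its regulatory light chain, was at 4.09, 3.35 and 1.19 against 10.5, 23.2 and 39.9. The log2 fold changes of Myh7 and Myl2 were 3.80 and 3.16 with all libraries and 3.87 and 3.40 without PBS replicate 1. Tnnt1, slow troponin T, was at 14.6, 12.2 and 9.30 against 19.5, 29.8 and 60.4. In these genes TD139 replicate 3 was the highest and PBS replicate 3 the lowest. Atp2a2, the slow-fibre calcium pump, was at 20.9, 18.7 and 21.5 against 26.8, 31.3 and 42.5. Myl3 was at 3.86 RPKM in TD139 replicate 1, next to 3.84 in PBS replicate 2.

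The p of the slow-fibre genes moved with WT PBS replicate 1, since the 4 groups share 1 estimate of the spread. Myh7 was at 442 RPKM there and at 0.0638 and 0.0207 in the other WT PBS libraries, and Myl2 at 386 against 0.449 and 0.130. The unadjusted p of Myh7 was 0.104 with it and 0.000279 without it, and 0.00109 in a fit of the 6 dyW libraries alone. For Myl2 these p were 0.101, 6.77e-05 and 0.000234. Without WT PBS replicate 1, 13 of the 17 members were higher at an unadjusted p under 0.05 (2.86% of all genes), and 13 in the 6 dyW libraries (4.32%). No adjusted p passed in edgeR: Myh7 was at 0.523 without WT PBS replicate 1 and 0.593 in the 6 libraries, and Myl2 at 0.361 and 0.593. The authors' deposited table gives Myl2 a log2 fold change of 3.17 with an adjusted p of 4.29e-13 and Myh7 3.81 with 2.39e-10.

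**Figure D3:**
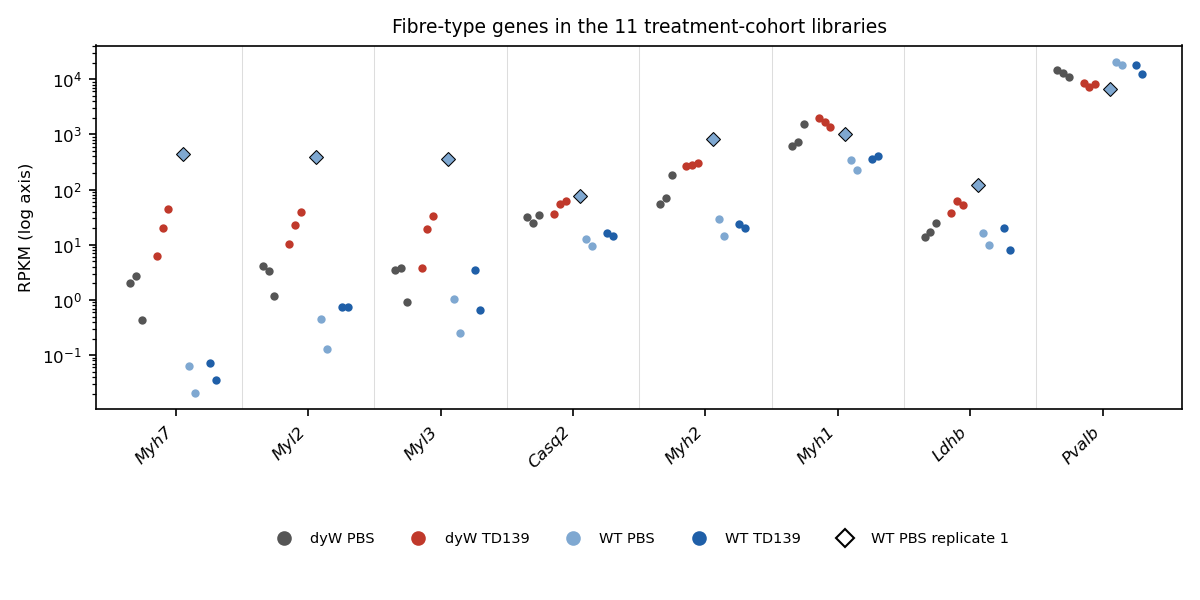
Points are RPKM on a log axis in each treatment-cohort library for slow-fibre genes (Myh7, Myl2, Myl3, Casq2), the type IIa and IIx myosins Myh2 and Myh1, the oxidative lactate dehydrogenase Ldhb and the fast-fibre calcium buffer Pvalb; the diamond is WT PBS replicate 1. Myh2 spans 55.4 to 185 in dyW PBS and 272 to 307 in dyW TD139, and Pvalb 11115 to 14723 and 7314 to 8360.

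Genes of intermediate and fast fibres were split. Myh2, the type IIa myosin of oxidative fast fibres, was at 55.4, 69.3 and 185 RPKM in dyW PBS and 272, 276 and 307 in dyW TD139 (log2 fold change 1.46, SE 1.05, and 1.13 without PBS replicate 1). Myh1, the IIx myosin, was at 628, 716 and 1572 against 1964, 1660 and 1341, so the groups overlapped through PBS replicate 3. Pvalb, the calcium buffer of the fastest fibres, was at 14723, 13163 and 11115 against 8360, 7314 and 8024 (log2 fold change −0.67, SE 0.38, and −0.64 without PBS replicate 1). Ldhb, the heart-type lactate dehydrogenase of oxidative fibres, was at 13.7, 16.8 and 25.2 against 38.3, 62.4 and 52.2 (log2 fold change 1.47, SE 0.70, and 1.25 without PBS replicate 1). Of 21 fast-fibre genes tested, 17 had a log2 fold change below 0, 8 had every TD139 library below every PBS library (7.08% of all genes), and the median was −0.21 (−0.30 without PBS replicate 1). In untreated muscle 18 of the 21 fast-fibre genes were lower in dyW than in WT and 12 of the 17 slow-fibre genes higher, at an adjusted p under 0.05 by edgeR; of all genes tested in that cohort 25.1% were lower and 24.7% higher.

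All 13 tested mitochondrially encoded genes had a log2 fold change above 0. Of these, 11 had every TD139 library above every PBS library (7.19% of all genes tested) and 5 were higher at an unadjusted p under 0.05 (1.94%). The median was 0.42. Leaving out PBS replicate 1 gave a median of 0.35 and 1 gene higher at an unadjusted p under 0.05 (1.12%). Reads from these genes made up 10.9%, 9.8% and 11.1% of exon reads in dyW PBS and 12.7%, 15.5% and 13.1% in dyW TD139. This share can also vary with RNA quality, and its part in the result was not tested. mt-Nd5, a subunit of complex I, was at 1628, 2352 and 2479 RPKM against 3169, 4131 and 3728. Among 34 nuclear genes of oxidative phosphorylation, 30 had a log2 fold change above 0 and 7 had every TD139 library above every PBS library (7.19% of all genes), with a median of 0.13 (0.11 without PBS replicate 1). At an unadjusted p under 0.05 there were 0 of the 34. Sdhb, of complex II, was at 117, 113 and 111 against 128, 154 and 131.

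Ppargc1a, the coactivator PGC-1alpha, was at 1.69, 2.11 and 2.83 RPKM in dyW PBS and 5.00, 4.43 and 2.94 in dyW TD139 (log2 fold change 0.93, SE 0.30, and 0.72 without PBS replicate 1). Ppargc1b, its relative, was at 1.51, 1.08 and 2.22 against 2.50, 3.72 and 2.70. Esrrg, an orphan nuclear receptor of oxidative fibres, was at 0.960, 1.00 and 1.57 against 2.31, 3.46 and 2.74. In RPKM none of the 3 overlapped between the groups; after TMM scaling Ppargc1a did. Of 34 fatty acid and ketone oxidation genes, 3 were higher and 2 lower at an unadjusted p under 0.05 (1.94% and 1.86% of all genes), with a median of 0.40. Leaving out PBS replicate 1 gave 2 higher, 1 lower and a median of 0.16. The count was 20 higher and 0 lower (4.18% and 3.23% of all genes), with a median of 0.75, without PBS replicate 3. The summed level of the list was 1210, 1270 and 2230 RPKM in dyW PBS and 1880, 2650 and 1750 in dyW TD139. By this sum PBS replicate 3 lay inside the TD139 range. It did so too for Acadvl, a fatty acid dehydrogenase, at 47.6, 65.2 and 97.6 against 98.4, 137 and 90.0, but not for Ucp3. The members lower with TD139 were Ucp3 and Angptl4, both induced by fatty acids; Ucp3 was at 38.3, 16.7 and 50.7 against 15.5, 20.3 and 20.0, with a log2 fold change of −0.88 that was −0.44 without PBS replicate 3.

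Lgals3, the gene of the protein that TD139 binds, overlapped between the groups. Lgals3 (ENSMUSG00000050335, chromosome 14, 47367751 to 47386160) was at 28.5, 9.90 and 12.3 RPKM in dyW PBS and 15, 12.3 and 15.8 in dyW TD139. Its log2 fold change was −0.15 (SE 0.32) with all libraries and 0.35 without PBS replicate 1, whose 28.5 RPKM was the highest. All 6 values lay above the 1.31 to 3.23 RPKM of the 5 WT libraries. Of 16 galectins and galectin-3 partners, 0 were higher or lower at an unadjusted p under 0.05, with or without PBS replicate 1, and 2 were higher without PBS replicate 3 (4.18% of all genes). Lgals1, galectin-1, was at 607, 394 and 362 RPKM against 332, 366 and 329. The 19 pan-macrophage genes had a median of −0.06, and 0.34 without PBS replicate 1. Their summed level was 337, 178 and 126 RPKM in dyW PBS and 173, 186 and 221 in dyW TD139, so PBS replicates 1 and 3 bracketed the TD139 libraries. The chemokine receptor Cx3cr1, at 2.07, 0.750 and 0.646 against 1.20, 1.34 and 1.66, was bracketed in the same way; its log2 fold change was 0.38, and 0.98 without PBS replicate 1. Cd14, the lipopolysaccharide co-receptor, was the 1 member of the list lower at an unadjusted p under 0.05 (1.86% of all genes), with a log2 fold change of −0.67. Leaving out PBS replicate 1 gave Cd14 −0.34 and the list 0 lower and 1 higher, Cx3cr1 (1.31% and 1.12% of all genes). Leaving out PBS replicate 3 gave the list 3 lower and 0 higher (3.23% and 4.18% of all genes).

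Of 17 resident macrophage genes tested, 3 were lower and 0 higher at an unadjusted p under 0.05 (1.86% and 1.94% of all genes), with a median of −0.39. It was −0.32 with 1 lower without PBS replicate 1, and −0.62 with 6 lower (3.23% of all genes) without PBS replicate 3. Retnla, a resistin-like protein of alternatively activated macrophages, was at 8.22, 15.3 and 8.92 RPKM against 3.40, 5.40 and 5.41. Clec10a, a lectin receptor, was at 2.45, 2.23 and 1.45 against 0.910, 1.46 and 1.02. Lyve1, a hyaluronan receptor, was at 3.05, 3.19 and 0.931 against 0.920, 1.02 and 1.39. Retnla did not overlap between the groups, while PBS replicate 3 was inside the TD139 range for Lyve1 and, in RPKM, for Clec10a. Of the mast cell and eosinophil genes 7 of 7 tested had a log2 fold change below 0, and Cma1, a chymase, was at 7.81, 8.66 and 3.03 against 2.72, 4.38 and 3.01. With PBS replicate 1 left out the mast cell median went from −0.72 to −0.68, and 0 members had an unadjusted p under 0.05 in place of 2 (1.31% and 1.86% of all genes lower). Without PBS replicate 3 the mast cell median was −1.10, with 4 lower (3.23% of all genes).

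Antigen presentation and interferon genes were the next group. The class I genes H2-K1 and H2-D1, which display peptides to T cells, were at 41.5, 40.9 and 33.7 RPKM against 22.2, 27.3 and 31.4, and at 58.0, 62.6 and 49.1 against 33.5, 38.1 and 48.1. Neither overlapped between the groups, and the log2 fold changes were −0.48 and −0.46 with all libraries and −0.49 and −0.51 without PBS replicate 1. They were the only 2 of 34 interferon-stimulated genes with an unadjusted p under 0.05 (1.86% of all genes were lower and 1.94% higher). The median of those 34 genes was −0.29 and became 0.06 without PBS replicate 1. Likewise the cell cycle median of 35 genes was −0.33 and became 0.15, and the inflammasome and toll-like receptor median of 25 genes was 0.10 and became 0.44. Class II genes had a median of −0.35, and −0.16 without that library. Without PBS replicate 3 the medians were −0.44 for interferon, −0.46 for cell cycle, −0.14 for inflammasome and −0.55 for class II genes. In that fit 5 interferon, 2 cell cycle and 5 of 11 class II genes were lower at an unadjusted p under 0.05 (3.23% of all genes). The inflammasome list had 1 higher and 0 lower, and the others had 0 higher (4.18% of all genes). Of 18 T, NK and B lymphocyte genes 10 had enough reads to be tested, and their summed level was 4.95 to 16.5 RPKM in the 6 libraries. Of 14 keratinocyte and skin genes 6 were tested, with sums of 9.16, 6.17 and 8.27 RPKM in dyW PBS and 5.90, 4.58 and 5.26 in dyW TD139.

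**Figure D4:**
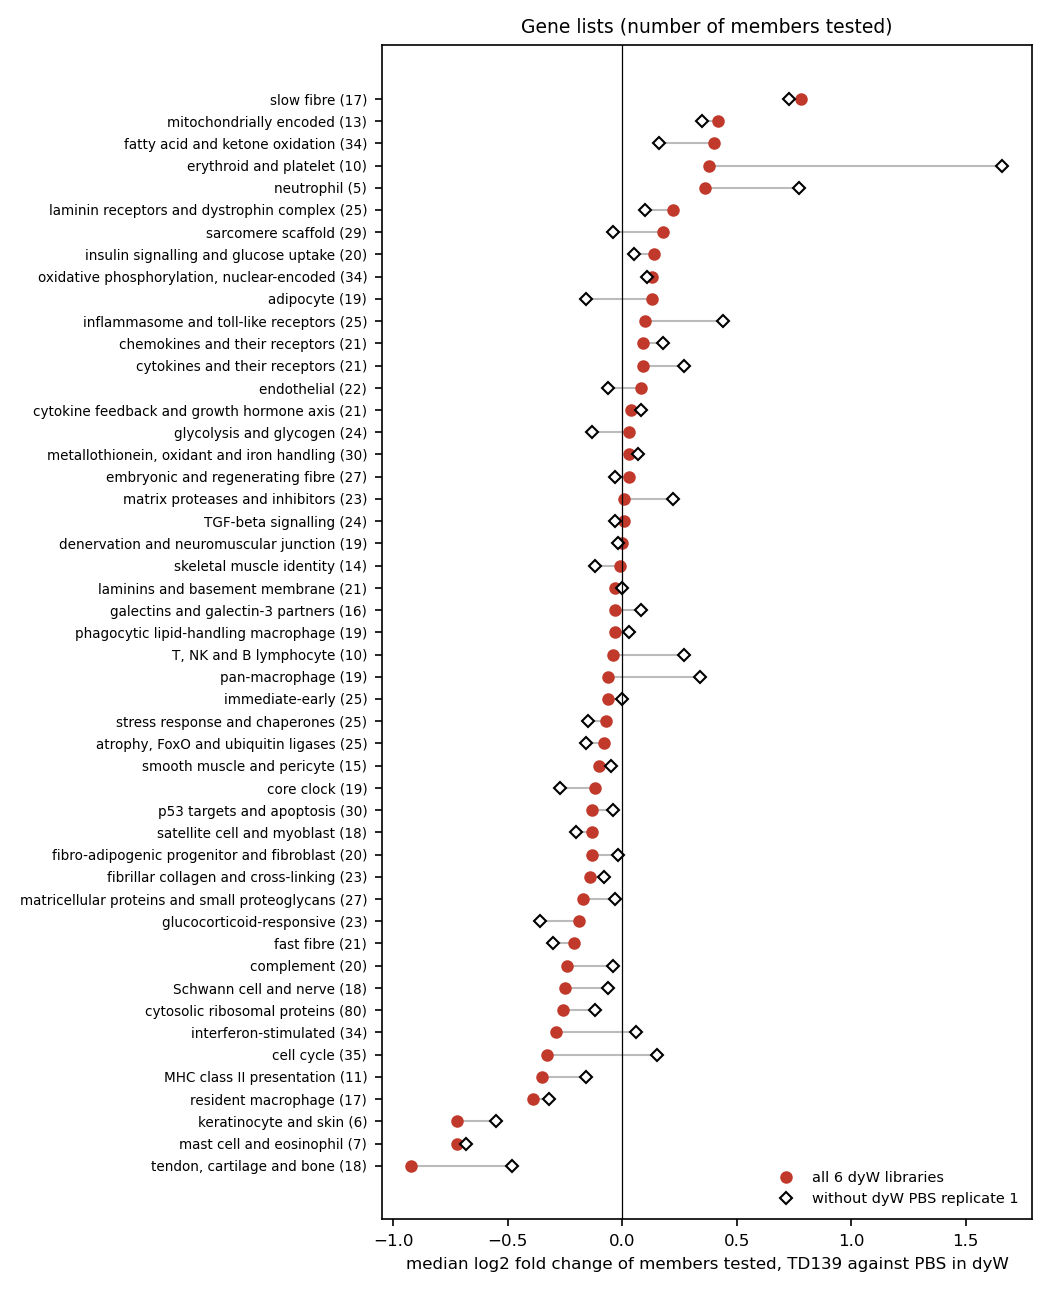
Each row is 1 of 49 gene lists with its number of members tested; the red point is the median log2 fold change of TD139 against PBS in dyW over all 6 libraries and the open diamond the median without dyW PBS replicate 1. Slow fibre is highest at 0.78 with all libraries, and erythroid and platelet genes go from 0.38 to 1.66 without the shallow library.

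The fibrillar collagen, matricellular protein, fibroblast and tendon lists were high in PBS replicates 1 and 2 and not in replicate 3. By the median level of their members, the matrix protease, TGF-beta signalling and basement membrane lists did not have this pattern. Summed RPKM was higher in PBS replicates 1 and 2 than in replicate 3 for 2 of them. Matrix protease sums were 292, 279 and 197 in dyW PBS and 229, 187 and 239 in dyW TD139. TGF-beta signalling sums were 190, 193 and 150 against 166, 145 and 169. Col1a1, the main fibrillar collagen, was at 475, 600 and 184 RPKM in dyW PBS and 206, 198 and 325 in dyW TD139. Of 23 fibrillar collagen and cross-linking genes, 0 were higher or lower at an unadjusted p under 0.05, and the median was −0.14 (−0.08 without PBS replicate 1, −0.33 and 7 lower without PBS replicate 3, where 3.23% of all genes were). Of 18 tendon, cartilage and bone genes, 4 were lower at an unadjusted p under 0.05 (1.86% of all genes), with a median of −0.92. The median was −0.48 with 4 lower without PBS replicate 1, and −1.22 with 6 lower without PBS replicate 3 (3.23% of all genes). Fmod, a tendon proteoglycan, was at 63.0, 152 and 19.5 against 24.3, 9.25 and 18.9, and Chad, of cartilage, at 7.57, 11.2 and 1.66 against 1.77, 0.269 and 1.36. The summed level of the list was 366, 452 and 166 RPKM in dyW PBS and 238, 139 and 207 in dyW TD139, and its median was −1.67 in the WT comparison. The amount of tendon in each piece of muscle is not recorded in the labels, and its part in the values of Fmod, Chad, Col2a1 and Col11a2 was not tested. Fst, which encodes the myostatin inhibitor follistatin, was at 9.01, 6.72 and 4.28 against 4.77, 3.90 and 3.79. Its PBS replicate 3 lay inside the TD139 range, and its log2 fold change of −0.61 was −0.42 without PBS replicate 1. Of 24 TGF-beta signalling genes tested, Fst was the 1 lower and the receptor gene Acvr2b the 1 higher at an unadjusted p under 0.05. Over all genes the shares were 1.86% and 1.94%. Acvr2b had a log2 fold change of 1.18 with overlapping groups, and the list median was 0.01.

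Genes of cytokine and growth factor feedback were found on both sides. Cish, a feedback inhibitor induced by STAT5, was at 0.622, 1.08 and 0.617 RPKM in dyW PBS and 1.78, 3.55 and 2.28 in dyW TD139 (log2 fold change 1.73, SE 0.75, and 1.56 without PBS replicate 1). Pim1, a kinase that STAT signalling also induces, was at 8.90, 8.84 and 6.85 against 4.51, 4.59 and 5.31 (log2 fold change −0.72, SE 0.25, and −0.73 without PBS replicate 1). Both were without overlap. Igfbp3, an insulin-like growth factor carrier, was at 23.2, 30.3 and 17.5 against 17.6, 14.8 and 15.9, which overlapped in RPKM. In the dystrophin complex Sgcd, delta-sarcoglycan, was at 1.25, 0.881 and 1.02 against 2.15, 2.65 and 1.17, where TD139 replicate 3 was inside the PBS range in RPKM, and Sgce, epsilon-sarcoglycan, at 5.31, 5.31 and 3.99 against 3.74, 3.29 and 3.57. Of the 25 receptor and complex genes tested, Sgcd was the 1 higher and Sgce the 1 lower at an unadjusted p under 0.05. Over all genes the shares were 1.94% and 1.86%. Without PBS replicate 1 Sgcd and Sgce were again the 1 higher and the 1 lower (1.12% and 1.31% of all genes). Without PBS replicate 3 there were 3 higher and 1 lower (4.18% and 3.23%). A fit of the 6 dyW libraries alone gave 6 higher and 1 lower (4.32% and 3.76%). Lists of regenerating fibre (27 tested), satellite cell (18 tested) and denervation (19 tested) had 0 members at an unadjusted p under 0.05 in either direction. Leaving out PBS replicate 1 gave 1 lower in the regenerating fibre list, 1 lower in the satellite cell list and 0 in the denervation list (1.31% of all genes lower). Leaving out PBS replicate 3 gave 1 higher and 2 lower, 0 in either direction, and 2 higher and 0 lower (4.18% and 3.23% of all genes). In the 6 dyW libraries alone the counts were 2 higher and 1 lower, 0 and 1, and 1 and 1 (4.32% and 3.76%). Myod1, the myoblast regulator, was at 15.1, 27.9 and 23.7 against 17, 14.8 and 16.7; its log2 fold change was −0.44, and −0.69 without PBS replicate 1, at an unadjusted p of 0.128 and 0.0129 by edgeR.

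Of 80 cytosolic ribosomal protein genes tested, 79 had a log2 fold change below 0 (51.2% of all genes did) and 32 had every TD139 library below every PBS library (7.08% of all genes), with 0 at an unadjusted p under 0.05. The median was −0.26, and −0.12 without PBS replicate 1, which carried the highest summed level of the 6, 16900 RPKM against 10600 to 12300. Many genes of this family have near-identical copies, so single members are uncertain. Erythroid and platelet genes were high in PBS replicate 1 and TD139 replicate 1, with sums of 2460 and 1860 RPKM against 331 to 1120 in the other 4 libraries, and 7 of 10 had an unadjusted p under 0.05 on the higher side once PBS replicate 1 was left out (1.12% of all genes); with it 1 had. Of 19 adipocyte genes tested 0 had an unadjusted p under 0.05, and the median was 0.13 (−0.16 without PBS replicate 1). Without PBS replicate 3 the adipocyte median was 0.38, with 3 higher (4.18% of all genes). Of the adipocyte genes Ucp1, the uncoupling protein of brown fat, was at 0, 0.179 and 3.14 RPKM in dyW PBS and 0.0714, 26.5 and 6.94 in dyW TD139.

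To ask whether TD139 shifted the disease profile, genes that differed between untreated dyW and WT muscle by at least 1 log2 unit were followed. Of 2053 tested genes that were higher in untreated dyW, 9 were higher and 69 lower with TD139 at an unadjusted p under 0.05 (1.94% and 1.86% of all genes), and the median was −0.16. Of 1362 that were lower in untreated dyW, 106 were higher and 21 lower, and the median was 0.25. Without PBS replicate 1 the counts were 23 higher and 19 lower in the first set and 43 higher and 34 lower in the second, and the medians were −0.00 and 0.18 (1.12% of all genes higher and 1.31% lower). Without PBS replicate 3 they were 13 higher and 173 lower in the first set and 248 higher and 22 lower in the second, and the medians were −0.28 and 0.36 (4.18% and 3.23%). A score per library, computed by subtracting the mean log2 CPM of the lower set from that of the higher set, was −1.21, −1.68 and −2.07 in dyW PBS and −2.19, −2.23 and −1.68 in dyW TD139. WT PBS was at −2.67, −2.77 and −3.30 and WT TD139 at −2.71 and −3.47. The dyW groups overlapped, with means of −1.65 ± 0.43 (SD, n = 3) for PBS and −2.03 ± 0.31 (SD, n = 3) for TD139. Their difference of −0.38 was −0.16 without PBS replicate 1, both smaller than the SD of the PBS group, and −0.59 without PBS replicate 3, larger than that SD.

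**Figure D5:**
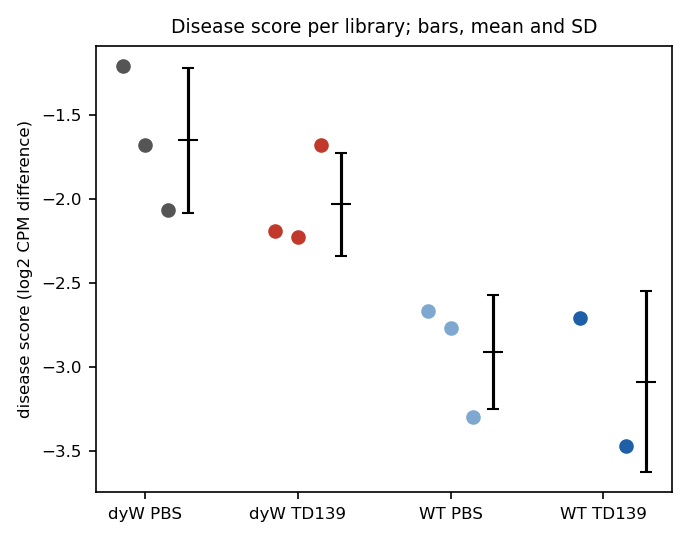
Points are the disease score of each library on the y axis (a difference of mean log2 CPM), by group, and the bars give the mean and SD. dyW TD139 libraries lie between −2.23 and −1.68 and dyW PBS libraries between −2.07 and −1.21, and the WT libraries between −3.47 and −2.67.

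Whether TD139 acted differently in dyW and in WT was tested as the difference of the 2 effects, which share no library. By edgeR 0 genes passed, also without PBS replicate 1; there were 294 at an unadjusted p under 0.05 (1.92%); DESeq2 called 1, Myh7 (adjusted p = 0.0249), the gene with 442 RPKM in WT PBS replicate 1. TD139 in WT gave 0 genes by edgeR and 304 (1.98%) at an unadjusted p under 0.05. Cpxm1, a secreted carboxypeptidase-like protein, was at 13.4, 10.6 and 6.11 RPKM in dyW PBS and 5.41, 5.17 and 5.53 in dyW TD139, and at 2.45, 3.46 and 2.91 in WT PBS and 4.16 and 3.97 in WT TD139. Its dyW libraries were lower and its WT libraries higher with TD139 (difference of log2 fold changes −1.38, SE 0.35). Dio2, the thyroid hormone activating deiodinase, was at 1.28, 0.861 and 0.600 against 1.66, 1.82 and 2.17 in dyW, and at 0.118 to 0.463 in the 5 WT libraries.

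The authors' deposited table for this comparison calls 68 of 20602 genes (0.33%), with 41 on the higher and 27 on the lower side. The fit here tested 67 of them, and each had the same sign; both come from these same libraries. None of the 67 passed edgeR's adjusted p, and 4 were called by DESeq2. Of the 67, 48 had an unadjusted p under 0.05 (3.8% of all genes tested) and 45 did not overlap between the groups (14.3%). The authors called these genes from the same libraries, so the counts are no independent check.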

How the data were processed

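Per the labels' protocols, TRIzol RNA from whole quadriceps (1 ug) was made into stranded mRNA libraries and sequenced as 58 bp pairs. The authors mapped to mm10, per the submitters' processing notes; the aligner and counter are not given in the sources used here. Each deposited table gives, per the file headers, RPKM, TPM and exon read counts (total and unique) for every gene. The authors' deposited tables hold log2 fold changes and p-values. TPM and unique counts were not used in the main tests.

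Total exon counts of the 11 treatment-cohort libraries in 4 groups were fitted with edgeR 4.0.16 in R 4.3.3: TMM, filterByExpr (minimum count 10, total 15), quasi-likelihood F-test, Benjamini-Hochberg adjustment, threshold 0.05, prior count 2. All adjusted p-values are from edgeR unless DESeq2 1.42.0 or limma 3.58.1 (log2(RPKM + 0.1) or log2(RPKM + 1)) is named. Overlap was judged on log2 CPM after TMM scaling where counted over a list, and on RPKM where values are printed. Replicates are numbered in accession order and samples were not paired. The p-values measure the spread between mice. Untreated libraries were fitted alone. The steps were also run on simulated counts with known changes. No detection rate from that run is given here.

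Members, 49 gene lists and tests were chosen with earlier results of these data known. Named genes are Lama2 and Lgals3, the 12 smallest p per direction (whichever group was higher had to average 1 RPKM or more; Gm, Rik and other provisional symbols and pseudogenes were left out; none passed the threshold), up to 4 smallest p per list, and the 5 smallest p per direction for the difference of effects. Klf9, Klf15, Fkbp5, Sgk1, Angptl4, Tnnt1, Atp2a2, Acadvl, Esrrg and Gm21541 were added after their values were seen. Alternatives were other tools, scalings, filters, library sets, sex as a term, thinned depth, unique reads and leaving out each library.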

Additional observations from a re-analysis of the deposited data

How the results depend on the processing

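No paired analysis was possible because the labels give each mouse its own animal number and no shared replicate number. The edgeR count of genes passing stayed at 0 in both directions under every alternative fitted with edgeR or limma; by DESeq2 it was 2 higher and 2 lower with all libraries and 0 higher and 2 lower without dyW PBS replicate 1, the latter chosen after seeing the data. The difference of effects gave 0 genes in edgeR and 1 by DESeq2. Leaving out libraries in turn gave 0 to 0 genes passing in each direction. The disease score difference ran from −0.59 to −0.16 over the libraries left out. Of 3965 pairs of a named gene and an alternative, 7 reversed the sign of the log2 fold change, in 6 genes. Lgals3 was 0.35 without dyW PBS replicate 1 (0.34 by DESeq2; −0.42 to 0.35 over the libraries left out). S100a9 was −0.33 (−0.33 to 0.95) and Alas2 −0.05 (−0.05 to 1.67) without dyW TD139 replicate 1. Cidea was −0.16 without dyW TD139 replicate 2 (−0.16 to 3.77), Atf5 0.01 without dyW PBS replicate 2 (−0.35 to 0.01) and Socs2 −0.01 without dyW PBS replicate 3 (−0.01 to 0.23). The cause was not tested. The library with the fewest reads, dyW PBS replicate 1 at 15.8 M, limits the precision of genes with low counts.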
